A study of Homo sapiens with 6 samples.

Results

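The genes described are YAP1, WWTR1 and TEAD1, which encode the coactivators YAP and TAZ and a TEAD transcription factor, with 7 genes that these factors are known to drive: CCN1, CCN2, ANKRD1, AMOTL2, AXL, LATS2 and AJUBA. They were taken by gene symbol, and all 10 were found among the 19990 genes of the deposited table. Each had a value above 1 in all 6 libraries, so none entered the test through 1 group alone. RNA was measured by poly(A)-selected, dUTP strand-specific sequencing in A549, an established epithelial-like line from human lung cancer. The groups were 2 libraries with a control (NonTarget) siRNA in cells labelled WT, 2 with TIMM13_siRNA1 and 2 with TIMM13_siRNA2, both of the latter labelled TIMM13 knockdown. The treatment label of all 6 samples, controls included, reads cell differentiation, and no time or dose is given. The stated purpose was to learn how TIMM13, a chaperone of mitochondrial protein import, acts on proliferation, and none of the 10 genes was named as a target of the study.

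YAP and TAZ are the coactivators at the end of the Hippo pathway. When the kinases MST1/2 and LATS1/2 are active, YAP and TAZ are phosphorylated and held in the cytoplasm or degraded; when they are not, YAP and TAZ enter the nucleus, bind TEAD factors and switch on genes for growth, adhesion and matrix. Several targets, among them LATS2 and AMOTL2, feed back on the pathway. In lung adenocarcinoma cells active YAP and TAZ are known as drivers of proliferation and of resistance to treatment. YAP and TAZ are controlled mainly through phosphorylation and location, neither of which RNA levels measure.

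Values are the deposited abundances, which the authors had already scaled to library size; the unit is not named. The read depth is unknown, and the column totals were 205986 to 219820 in 5 libraries and 299936 in siRNA 2 replicate 2. That library correlated with the other 5 at 0.745 to 0.805 across genes, which are not independent replicates, and the other pairs at 0.831 to 0.895. TIMM13 ranged from 1.82 to 2.56 over the libraries and was not detectably lower with siRNA 1 (log2 difference −0.16, limma adjusted p = 0.653) or siRNA 2 (−0.12, adjusted p = 0.666), so the siRNA groups are named here by their labels only. Of 8 epithelial markers 6 passed the filter on low values, with KRT8 between 703 and 1290, while CLDN7 and ESRP1 did not. Of 12 markers of leukocytes, endothelium and fibroblasts, CD14 and COL1A1 passed and CD3E was listed at 0 in every library. Nothing in the labels tells separate cultures from repeat libraries, so p-values reflect the spread between these samples alone, which may be technical. In such bulk samples fewer cells with an RNA and less of it per cell cannot be told apart.

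CCN2 and ANKRD1 are shown by their promoters, because TEAD motifs recur there and because both had their lowest values in the libraries of siRNA 2. CCN2 encodes a secreted matricellular protein and ANKRD1 a nuclear ankyrin-repeat cofactor. Each run is the 250 bases before the RefSeq start on GRCh38.p14, minus strand, 5′ to 3′, at chr6:131951373-131951622 for CCN2 and chr10:90921088-90921337 for ANKRD1. Capitals mark the TEAD core, read as GGAATG or, on the other strand, CATTCC.
CCN2: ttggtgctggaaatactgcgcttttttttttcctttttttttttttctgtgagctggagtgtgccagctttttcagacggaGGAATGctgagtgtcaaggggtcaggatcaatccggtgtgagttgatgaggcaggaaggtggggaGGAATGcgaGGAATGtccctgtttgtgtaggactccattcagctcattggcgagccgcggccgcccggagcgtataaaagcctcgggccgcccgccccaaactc
ANKRD1: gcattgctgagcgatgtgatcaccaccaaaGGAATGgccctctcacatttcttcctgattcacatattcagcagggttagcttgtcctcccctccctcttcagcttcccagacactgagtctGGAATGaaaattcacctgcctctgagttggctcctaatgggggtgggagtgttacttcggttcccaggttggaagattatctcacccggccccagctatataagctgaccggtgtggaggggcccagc
The CCN2 window held 3 matches, which begin 169, 104 and 95 bases before the start, and the ANKRD1 window held 2, at 220 and 128 bases. Of 35114 promoter windows of this length in the same table, 11.9% held at least 1 match, 0.94% at least 2 and 0.0826% at least 3. RefSeq windows were found for 8 of the 10 genes, as 12 windows since some genes have several starts, and 6 of these windows, from 6 genes, held a match; CCN1 and TEAD1 had no window in the table. The AP-1 motif, searched as TGANTCA on both strands, was found in the ANKRD1 window alone among the 8 genes, 195 bases before the start and overlapping no TEAD match, against 6.57% of all windows. The CArG box bound by SRF was found in 0 of the 8 and in 1.16% of all windows. A match of letters is a description and not a bound site, and a window without one says nothing of the factor.

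Among the secreted and nuclear targets, CCN2, CCN1 and ANKRD1 had their lowest values in both siRNA 2 libraries. CCN2 (chromosome 6, 131948176 to 131951373, minus strand, GRCh38, 1 annotated transcript of 5 exons) stood at 86.6 and 94.3 with the control siRNA, 81.4 and 84.2 with siRNA 1, and 41.7 and 28.2 with siRNA 2. Both siRNA 2 libraries lay far below the other 4, and siRNA 1 lay just below the controls. The group means were 90.4 ± 5.48, 82.8 ± 1.98 and 34.9 ± 9.50 (SD, n = 2), so siRNA 2 held 38.6% of the control level and siRNA 1 91.6%. For siRNA 2 the log2 difference was −1.37 (SE 0.236, limma adjusted p = 0.0595, 95% interval −1.99 to −0.75). For siRNA 1 it was −0.12 (SE 0.236, adjusted p = 0.835, interval −0.74 to 0.50), so control and siRNA 1 were not separated beyond their spread. The direct comparison of the siRNAs gave 1.25 (SE 0.236, adjusted p = 0.0678).

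CCN1, like CCN2 a secreted matricellular protein that binds integrins, lies on chromosome 1 (85580761 to 85583962, plus strand, 2 transcripts). It stood at 78.2 and 68.9 in control, 56.4 and 55.0 with siRNA 1, and 34.5 and 27.9 with siRNA 2. No group overlapped another: control was highest, siRNA 1 between and siRNA 2 lowest. The means were 73.5 ± 6.60, 55.7 ± 0.977 and 31.2 ± 4.70 (SD, n = 2), that is 75.7% of control with siRNA 1 and 42.5% with siRNA 2. On the log2 scale siRNA 1 differed from control by −0.39 (SE 0.185, limma adjusted p = 0.330) and siRNA 2 by −1.21 (SE 0.185, adjusted p = 0.0515, 95% interval −1.70 to −0.73). Between the siRNAs it was 0.82 (adjusted p = 0.0894).

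ANKRD1 (chromosome 10, 90912096 to 90921276, minus strand, 1 transcript of 9 exons) was low throughout, at 2.33 and 2.80 in control, 2.89 and 2.90 with siRNA 1, and 1.64 and 1.82 with siRNA 2. The siRNA 2 libraries were the lowest and the siRNA 1 libraries the highest, with no overlap. At such values log2(value + 1) understates a change: the differences were 0.13 for siRNA 1 and −0.38 for siRNA 2 (limma adjusted p = 0.692 and 0.201), and 0.51 between the siRNAs (adjusted p = 0.135). As a description over the 6 libraries, which share their groups, CCN2 correlated at 0.957 with CCN1 and at 0.864 with ANKRD1. Summed markers of other cell types, 12 genes of which 2 passed the filter, stood at 5.11 and 5.50 in control, 4.84 and 5.17 with siRNA 1, and 9.89 and 11.8 with siRNA 2. CD14 was the one of them that limma called between the siRNAs, at 2.05 ± 0.351 with siRNA 1 and 6.72 ± 0.383 with siRNA 2 (SD, n = 2, limma adjusted p = 0.0420). Its control level was 4.28 ± 0.264. COL1A1, which was below 1 in both controls and passed through the siRNA groups, stood at 0.776 ± 0.0267, 2.08 ± 0.344 and 3.41 ± 1.17 in control, siRNA 1 and siRNA 2. With siRNA 1 CD14 was thus lower and COL1A1 higher, and neither was called against control. The 8 epithelial markers summed to 1300 and 1140 in control, 1400 and 1350 with siRNA 1, and 1810 and 2710 with siRNA 2, most of it KRT8 and KRT18. CLDN4, the one epithelial marker called between the siRNAs, went the other way, at 4.03 ± 0.236 with siRNA 1 and 0.998 ± 0.0242 with siRNA 2 (adjusted p = 0.0434). The part of either marker list in the lower CCN1, CCN2 and ANKRD1 values of siRNA 2 was not tested.

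**Figure D1:**
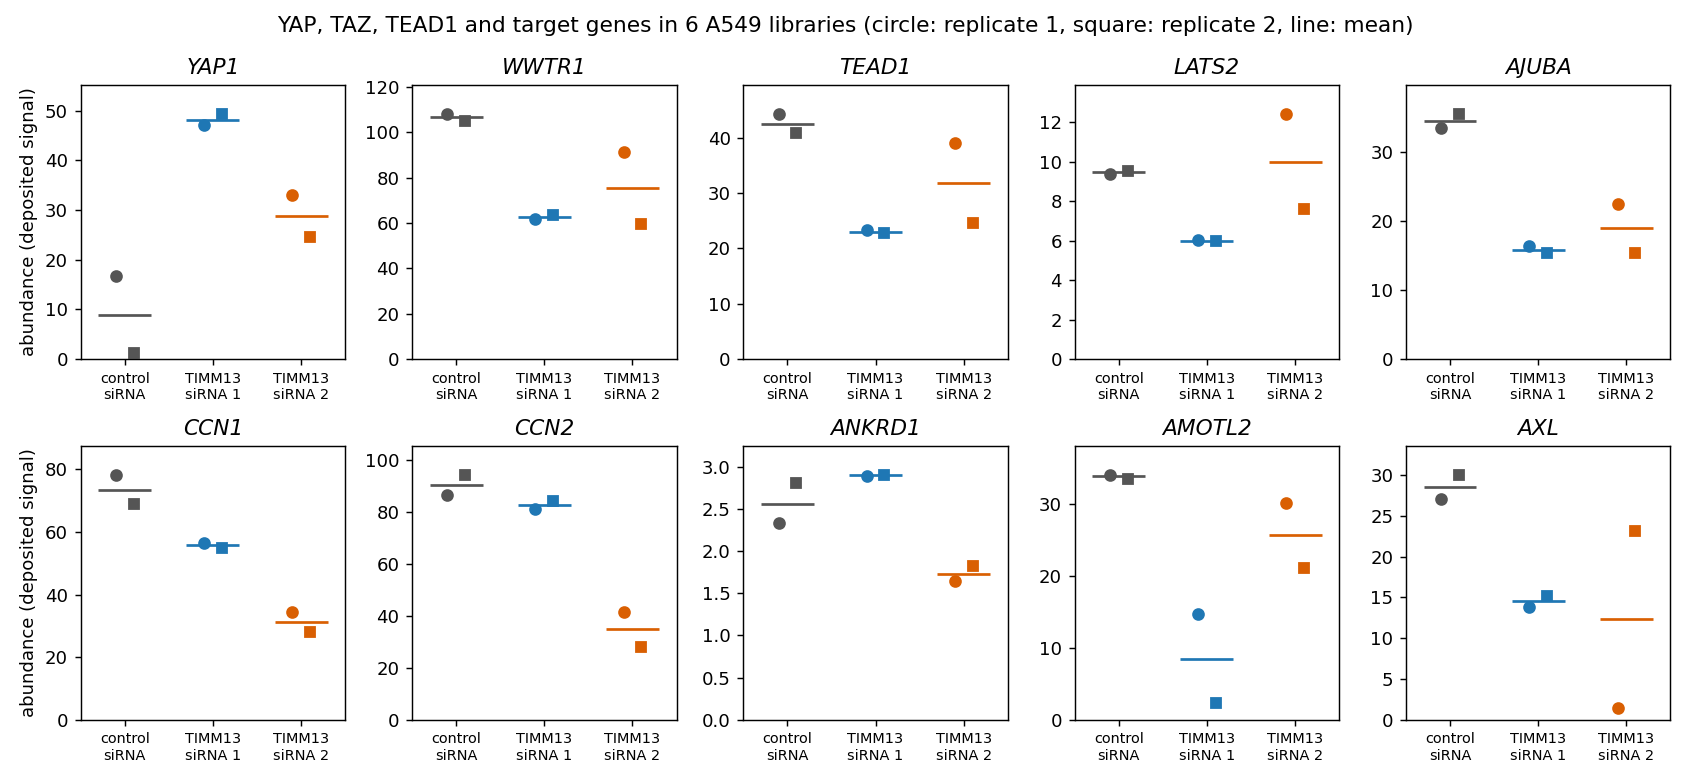
Deposited abundance of the 10 genes (linear y axis from 0) in each library, by siRNA group on the x axis; circles are replicate 1, squares replicate 2 and lines the mean of 2. CCN1, CCN2 and ANKRD1 are lowest in both siRNA 2 libraries, WWTR1, TEAD1, LATS2 and AJUBA sit close together and low with siRNA 1, and YAP1 (control), AMOTL2 (siRNA 1) and AXL (siRNA 2) have replicates far apart.

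A second layout was seen in WWTR1, TEAD1 and AJUBA, which were low in both siRNA 1 libraries and in siRNA 2 replicate 2. With upper quartiles made equal, siRNA 2 replicate 2 was the lowest library in all 3, and the log2 difference between the siRNAs moved from −0.24 to −0.05 in WWTR1, from −0.41 to −0.23 in TEAD1 and from −0.22 to −0.03 in AJUBA. WWTR1, which encodes TAZ, lies on chromosome 3 (149517235 to 149736714, minus strand, 12 transcripts). It stood at 108 and 105 in control, 61.7 and 63.4 with siRNA 1, and 91.3 and 59.8 with siRNA 2. All 4 siRNA libraries were below both controls, siRNA 2 replicate 1 was close to them, and replicate 2 was the lowest of all. Relative to the control mean of 107 ± 1.89 (SD, n = 2), siRNA 1 held 58.7% and siRNA 2 70.9%. The log2 differences were −0.76 and −0.52 (SE 0.248 each, limma adjusted p = 0.192 and 0.265).

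TEAD1, the DNA-binding partner of both coactivators, lies on chromosome 11 (12674591 to 12944483, plus strand, 7 transcripts). It stood at 44.2 and 40.8 in control, 23.3 and 22.7 with siRNA 1, and 39.0 and 24.6 with siRNA 2. It had the layout of WWTR1: the siRNA 1 pair was tight and low, and the siRNA 2 pair was split, with replicate 1 near control and replicate 2 near siRNA 1. The means were 42.5 ± 2.38, 23.0 ± 0.376 and 31.8 ± 10.2 (SD, n = 2). Log2 differences from control came to −0.86 for siRNA 1 and −0.44 for siRNA 2 (SE 0.259 each, limma adjusted p = 0.171 and 0.336).

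AJUBA, a LIM-domain scaffold that binds LATS kinases and restrains them, lies on chromosome 14 (22971174 to 22982642, minus strand, 8 transcripts). It stood at 33.4 and 35.4 in control, 16.4 and 15.3 with siRNA 1, and 22.4 and 15.4 with siRNA 2. All siRNA libraries were well below the controls, and the siRNA groups met at their lower ends. With siRNA 1 it held 46.1% of the control mean of 34.4 ± 1.41 (SD, n = 2) and with siRNA 2 55.0%. The log2 differences were −1.07 (SE 0.227, limma adjusted p = 0.0981, 95% interval −1.67 to −0.47) and −0.85 (SE 0.227, adjusted p = 0.113, interval −1.45 to −0.25). The siRNAs differed from each other by −0.22 (interval −0.82 to 0.38, adjusted p = 0.570). Over the 6 libraries WWTR1 correlated at 0.983 with TEAD1 and at 0.970 with AJUBA, as a description.

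LATS2, the kinase that phosphorylates YAP and TAZ and is itself a feedback target, lies on chromosome 13 (20973032 to 21061547, minus strand, 2 transcripts). It stood at 9.39 and 9.55 in control, 6.02 and 5.96 with siRNA 1, and 12.4 and 7.62 with siRNA 2. The siRNA 1 pair was the lowest, while the siRNA 2 pair lay on either side of control. Against control the log2 difference was −0.58 (SE 0.260, limma adjusted p = 0.305) for siRNA 1 and 0.04 (adjusted p = 0.932) for siRNA 2. The latter was −0.16 with upper quartiles made equal, −0.18 with column totals made equal and −0.28 without siRNA 2 replicate 1, so it has no stable direction.

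**Figure D2:**
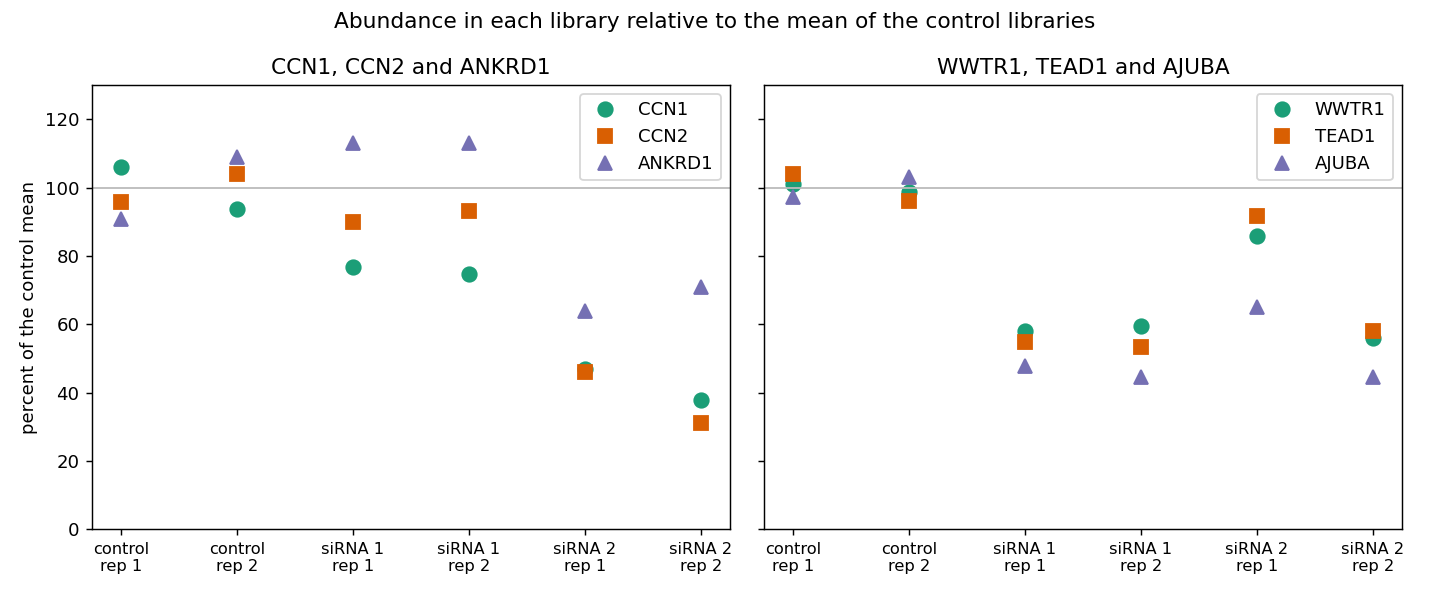
Abundance of 6 genes in each library as a percent of the control mean (y axis, linear from 0; x axis, library). CCN1, CCN2 and ANKRD1 lie at 31.2% to 71.0% with siRNA 2 and at 74.8% to 113% with siRNA 1, while WWTR1, TEAD1 and AJUBA lie at 44.5% to 59.4% with siRNA 1 and at 44.7% to 91.8% with siRNA 2.

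In YAP1, AMOTL2 and AXL, 1 library decided the group value. YAP1 (chromosome 11, 102110461 to 102233423, plus strand, 11 transcripts) stood at 16.7 and 1.16 in control, 47.1 and 49.3 with siRNA 1, and 33.1 and 24.6 with siRNA 2. The siRNA libraries all lay above both controls, but the controls themselves were 14.4-fold apart. The mean was 8.96 ± 11 in control against 48.2 ± 1.56 and 28.8 ± 6.03 (SD, n = 2). The log2 differences of 2.99 and 2.25 had an SE of 1.04 each (limma adjusted p = 0.218 and 0.260, 95% intervals 0.22 to 5.76 and −0.52 to 5.03). Without control replicate 2, the library at 1.16, they were 1.47 and 0.74, and without control replicate 1 they were 4.51 and 3.77. YAP1 was the only one of the 10 genes with all 4 siRNA libraries above both controls. As a description over the 6 libraries, it correlated negatively with every other member, from −0.177 with ANKRD1 to −0.783 with AJUBA. The value with WWTR1 was −0.664, and control replicate 2, at 1.16, enters all of them.

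AMOTL2, an angiomotin-family protein that holds YAP at cell junctions, lies on chromosome 3 (134355874 to 134375479, minus strand, 13 transcripts). It stood at 34.1 and 33.6 in control, 14.7 and 2.33 with siRNA 1, and 30.2 and 21.2 with siRNA 2. Every siRNA library was below the controls, and the siRNA 1 replicates differed by 6.31-fold. The log2 differences were −2.27 for siRNA 1 and −0.41 for siRNA 2 (SE 0.782 each, limma adjusted p = 0.217 and 0.756), and the former was −1.15 without siRNA 1 replicate 2 and −3.39 without replicate 1. AXL, a receptor tyrosine kinase for GAS6, lies on chromosome 19 (41219203 to 41261766, plus strand, 5 transcripts). It stood at 27.1 and 30.0 in control, 13.8 and 15.2 with siRNA 1, and 1.48 and 23.1 with siRNA 2. The siRNA 1 pair held 51.0% of control, and the siRNA 2 replicates were 15.6-fold apart, on either side of siRNA 1. The log2 differences were −0.92 and −1.93 (SE 1.11 each, limma adjusted p = 0.712 and 0.335). The siRNA 2 value was −0.29 without replicate 1 and −3.57 without replicate 2.

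The replicate gaps of these 3 genes, 14.4-fold, 6.31-fold and 15.6-fold, compare with at most 1.63-fold in any group for the other 7. Over all 11486 tested genes, 9.63% were more than 2-fold apart between the control replicates, 9.19% between those of siRNA 1 and 24.7% between those of siRNA 2. YAP1, AMOTL2 and AXL have 11, 13 and 5 annotated transcripts, WWTR1, TEAD1 and AJUBA 12, 7 and 8, and CCN1, CCN2, ANKRD1 and LATS2 have 1 or 2. Whether the number of transcripts has a part in the gaps was not tested. Exons of YAP1, WWTR1, CCN2 and AXL overlap antisense genes by 628, 795, 195 and 67 bases. Those of AMOTL2 overlap the pseudogene RPL39P5 by 187 bases on the same strand, and those of AJUBA a same-strand gene by 50. The sources used here do not say whether counting used strand, so reads in these stretches are uncertain.

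None of the 10 genes passed limma's adjusted p of 0.05 in any comparison, 0 with siRNA 1, 0 with siRNA 2 and 0 between the siRNAs, where 1.63% (0.705% higher, 0.923% lower), 3% (1.24%, 1.76%) and 3.27% (1.91%, 1.37%) of all tested genes did. At an unadjusted p under 0.05 there were 5, 3 and 3 members, against 20.5%, 25.7% and 24.3% of all genes. The 10 genes had a median log2 difference of −0.67 with siRNA 1 and −0.48 with siRNA 2, beside 0.05 and 0.14 over all tested genes, and 8 of 10 were negative in each. These comparisons share the same 2 control libraries. In 7 genes, WWTR1, TEAD1, CCN1, CCN2, AMOTL2, AXL and AJUBA, all 4 siRNA libraries lay below both controls, as did 14.7% of all tested genes; 18.3% lay above both, among them YAP1. The same 7 and 1 were found with upper quartiles or column totals made equal. The 10 genes were chosen with earlier results of these data known, so counts set beside all genes are no independent test. With siRNA 1 the groups did not overlap for all 10 genes, 2 higher and 8 lower, where 67.8% of all genes did not overlap, 36.8% higher and 31.1% lower. With siRNA 2, 1 was higher, 8 were lower and 1 overlapped, against 59.6% of all genes without overlap, 33.7% higher and 25.9% lower. Between the siRNAs 4 were higher with siRNA 1 and 3 lower, against 57.2% without overlap, 26.4% higher and 30.8% lower.

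**Figure D3:**
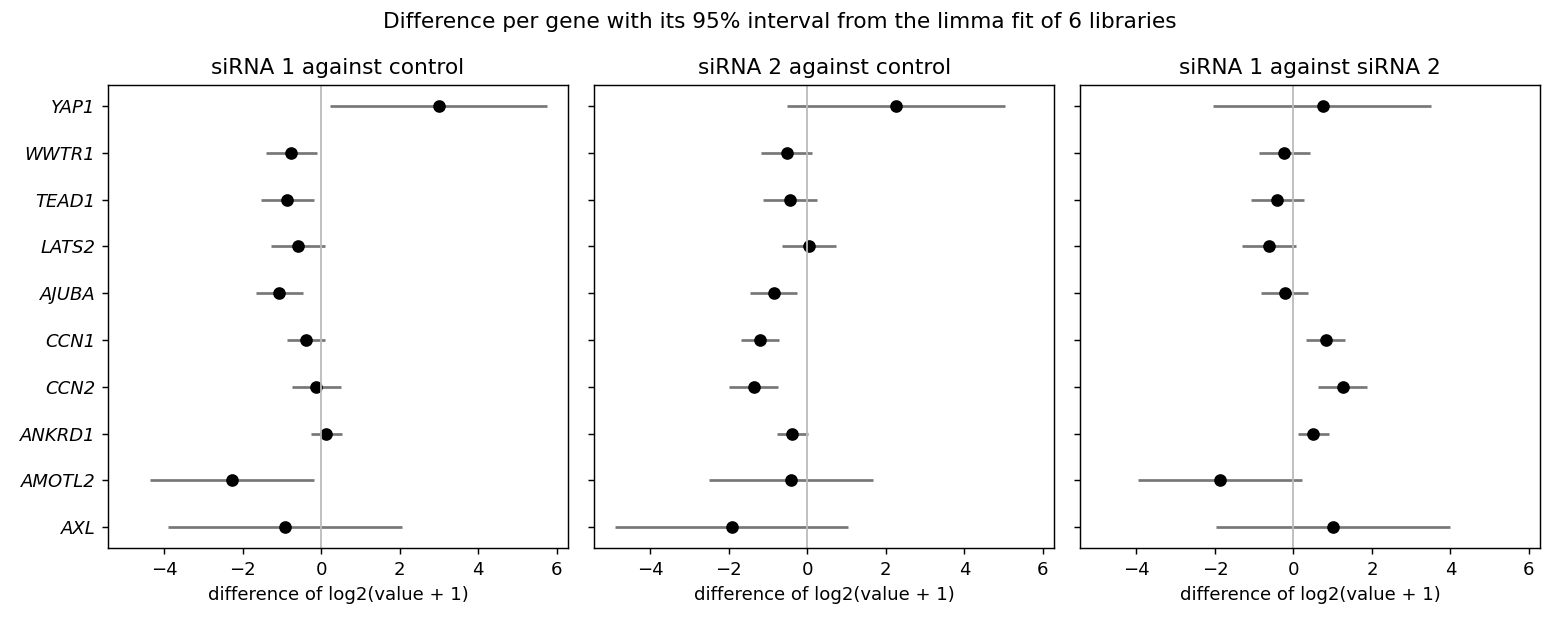
Difference of log2(value + 1) for the 10 genes (x axis) in 3 comparisons, with 95% intervals from the limma fit of 6 libraries. The intervals of AJUBA lie below 0 with both siRNAs, those of CCN1 and CCN2 lie below 0 with siRNA 2 and above 0 between the siRNAs, and those of YAP1, AMOTL2 and AXL are the widest.

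The count of passing members depended on the siRNA 2 libraries, which share the estimate of the spread. In a fit of only control and siRNA 1, limma passed 5 of the 10, all lower: AJUBA (adjusted p = 0.0146), WWTR1 (0.0141), TEAD1 (0.0164), AXL (0.0212) and LATS2 (0.0294). In that fit limma called 21.8% of all tested genes (10.2% lower), so the share called rose for all genes and not for the 10 alone. With library weights 5 members passed, all lower, beside 26.1% of all genes (12.3% lower). The same count of 5, all lower, was reached without siRNA 2 replicate 1, beside 20.8% of all genes (9.74% lower), and without siRNA 2 replicate 2, beside 21.1% (9.94% lower). Without either control library or either siRNA 1 library limma called no tested gene, so those runs do not bear on the members alone. For siRNA 2 against control, limma passed 5 without replicate 1, beside 40.4% of all genes (16.9% lower), and 4 without replicate 2, beside 15.4% (8.51% lower); all were lower, and the lone siRNA 2 library is assumed to vary like the other groups. CCN2 (log2 difference −1.64 and −1.10), CCN1 (−1.36 and −1.07) and AJUBA (−1.11 and −0.59) were lower in both runs. For siRNA 1 against siRNA 2 the counts were 3, beside 39.7% of all genes, and 6, beside 14.4%. AXL there turned from −0.63 without replicate 1 to 2.65 without replicate 2, and WWTR1 from 0.06 to −0.54. CCN2 (1.52 and 0.97) and CCN1 (0.97 and 0.67) kept their sign. A fit of only the groups compared passed 0 members for siRNA 2 and 0 between the siRNAs. In both of these fits limma called 0 of all tested genes, so the result is not particular to the members.

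A wider list of 40 YAP and TEAD targets, which includes the 7 above, had 37 tested genes, most of which were not called. Over all tested genes limma called 0.705% higher and 0.923% lower with siRNA 1, and 1.24% and 1.76% with siRNA 2. The log2 difference was negative in 20 of the 37 with siRNA 1 and in 25 with siRNA 2, and positive in 26 between the siRNAs. Over all 11486 tested genes it was negative in 5305 and 4847, and positive in 5063. Of the 30 without the 7 members, 14 were negative with siRNA 1 and 19 with siRNA 2, and 22 were positive between the siRNAs. With siRNA 1, 2 rose and 0 fell: THBS1, the matrix protein thrombospondin 1, at 18.0 ± 1.33 beside 5.22 ± 0.0565 in control (SD, n = 2; limma adjusted p = 0.0422), and PTPN14, a phosphatase that binds YAP, at 3.46 ± 0.130 beside 0.390 ± 0.0707 (adjusted p = 0.0427). PTPN14 was below 1 in both controls and passed the filter on low values through the siRNA groups, where it is high; with no filter its adjusted p was 0.0542. With siRNA 2, 0 rose and 2 fell: NT5E, the ectoenzyme CD73 that makes adenosine, from 15.6 ± 0.530 to 4.86 ± 0.0735, and the kinase NUAK1 from 15.8 ± 0.936 to 4.40 ± 1.26 (adjusted p = 0.0376 and 0.0438). Medians over the 37 were −0.12 and −0.41, and the latter was −0.62 with upper quartiles and −0.64 with column totals made equal. Without the 7 members the medians were 0.05 and −0.34, beside 0.05 and 0.14 over all tested genes. Between the siRNAs 4 of the 37 were higher with siRNA 1 and 0 lower, beside 1.91% and 1.37% of all tested genes. NT5E stood at 30.8 ± 1.56 with siRNA 1, a log2 difference of 2.44 from siRNA 2 (SE 0.156, adjusted p = 0.0191), and THBS1 at 4.43 ± 0.410 with siRNA 2 (1.81, adjusted p = 0.0310). CCN3, the third CCN-family member described, stood at 1.43 ± 0.0431 with siRNA 1 and 0.310 ± 0.0934 with siRNA 2 around a control of 0.939 ± 0.0185 (0.89, adjusted p = 0.0411). It reached 1 in the siRNA 1 libraries alone and entered the test through them, where it is high; with no filter its adjusted p was 0.0474. BIRC5, the mitotic protein survivin, stood at 36.5 ± 0.478 and 12.8 ± 2.57 around 23.6 ± 0.0651 (1.45, adjusted p = 0.0431). The median between the siRNAs was 0.29, beside −0.10 over all genes, and 0.47 under either rescaling, beside 0.06 and 0.05. NUAK1 and BIRC5 were chosen after their values were seen, and with no filter limma called neither. None of these 8 calls was made without either control library or either siRNA 1 library, where limma called 0 genes of any kind and where CCN3, without a siRNA 1 library, was not tested, nor did any but NT5E between the siRNAs hold with column totals made equal.

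**Figure D4:**
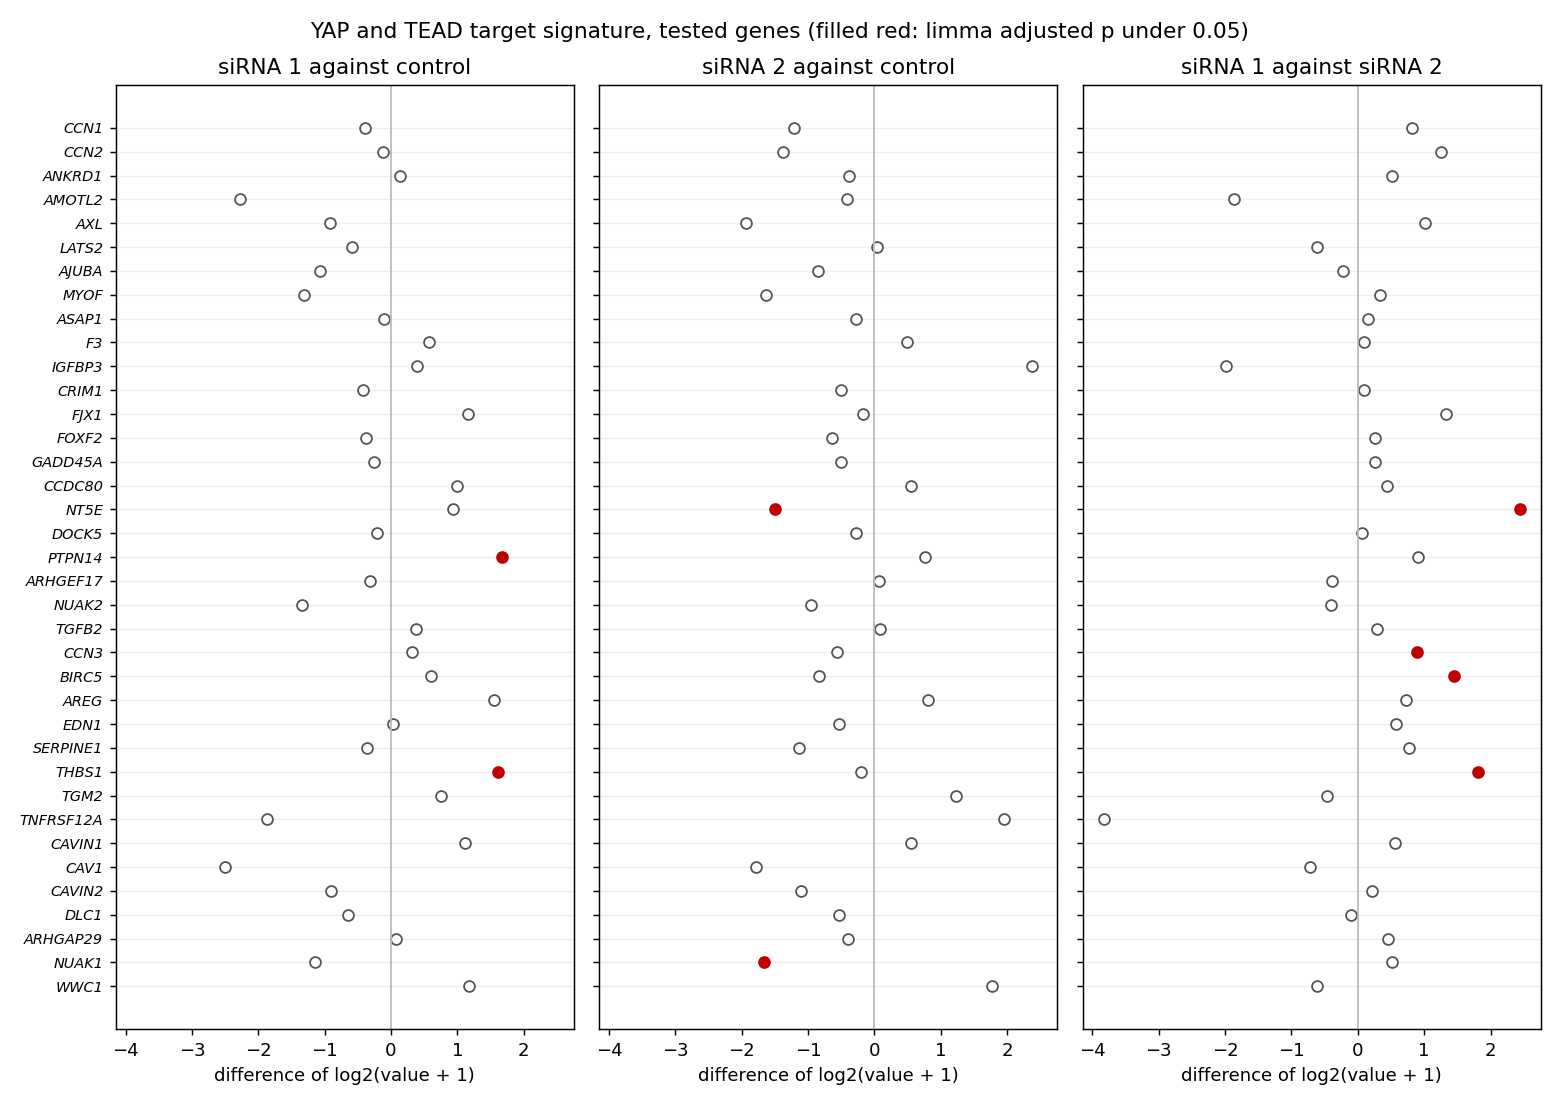
Difference of log2(value + 1) (x axis) of the 37 tested genes of the YAP and TEAD target list in 3 comparisons; filled red points have a limma adjusted p under 0.05 and open points do not. The filled points are THBS1 and PTPN14 with siRNA 1, NT5E and NUAK1 with siRNA 2, and NT5E, CCN3, BIRC5 and THBS1 between the siRNAs.

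Most tested regulators of the pathway were not called. Over all tested genes limma called 0.705% higher and 0.923% lower with siRNA 1, and 1.24% and 1.76% with siRNA 2. Between the siRNAs it called 1.91% higher and 1.37% lower with siRNA 1. Of 8 tested coactivator, TEAD and VGLL genes, 0 passed with either siRNA, and 1 was higher with siRNA 1 than with siRNA 2. That gene, VGLL3, encodes a TEAD cofactor that competes with YAP for TEAD, and averaged 5.07 ± 0.442 in control (SD, n = 2), where siRNA 1 gave 8.77 ± 0.784 and siRNA 2 gave 1.85 ± 0.561; the siRNAs differed by 1.79 on the log2 scale (limma adjusted p = 0.0369). Of 19 tested genes of the kinase core and its phosphatase complex, 0 passed with either siRNA. STK3, the kinase MST2, and STRN3, a striatin of the phosphatase complex that counters it, were lower with siRNA 1 than with siRNA 2. STK3 stood at 3.84 ± 0.256 and 11.1 ± 0.119 (control 9.41 ± 0.518), and STRN3 at 6.12 ± 0.718 and 14.6 ± 0.383 (control 13 ± 0.454), with adjusted p of 0.0383 and 0.0473. Of 30 tested upstream and YAP-binding regulators, 2 rose with siRNA 1, PTPN14 and the polarity scaffold DLG5, which went from 4.81 ± 0.227 to 15.0 ± 0.765 (adjusted p = 0.0425). PTPN14 entered the test through the siRNA groups, where it is high. With no filter on low values neither was called (limma adjusted p = 0.0542 for PTPN14 and 0.0512 for DLG5). In this list 0 passed with siRNA 2, and 1 between the siRNAs, the casein kinase CSNK1E, at 24.2 ± 0.0556 and 9.32 ± 0.411 (control 17.6 ± 0.185, adjusted p = 0.0369). With upper quartiles or column totals made equal limma made none of these calls. Without either control or either siRNA 1 library it called no gene of any kind, so those runs do not bear on these calls. The call of STRN3 was also lost with no filter.

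CCN1, CCN2 and ANKRD1 are also known to respond to SRF with its MRTF cofactors and to AP-1. Over all tested genes limma called 0.705% higher and 0.923% lower with siRNA 1, and 1.24% and 1.76% with siRNA 2. Between the siRNAs it called 1.91% higher and 1.37% lower with siRNA 1. Of 21 tested SRF and MRTF targets, 0 rose and 1 fell with siRNA 1, and 1 rose and 3 fell with siRNA 2. The early growth response factor EGR2 fell with both, at 0.898 ± 0.0795 (limma adjusted p = 0.0422) and 0.127 ± 0.0844 (adjusted p = 0.0204) beside 3.47 ± 0.280 in control (SD, n = 2). It reached 1 in the controls alone and entered the test through them, where it is high; with no filter the adjusted p were 0.0493 and 0.0283. EGR1, chosen after its values were seen, fell with siRNA 2 from 347 ± 0.124 to 73.0 ± 26.0, and JUNB, which is also an AP-1 subunit, from 254 ± 3.43 to 67.3 ± 24.0 (adjusted p = 0.0397 and 0.0489). With no filter both calls were lost (limma adjusted p = 0.0501 and 0.0623). The myosin light chain MYL9 rose with siRNA 2 from 0.448 ± 0.129 to 2.21 ± 0.0598 (adjusted p = 0.0397). It reached 1 in the siRNA 2 libraries alone, where it is high, and with no filter the call was lost (adjusted p = 0.0501). Between the siRNAs, smooth muscle actin ACTA2 (14.1 ± 0.308 and 1.15 ± 0.927) and the calponin CNN3 (99.1 ± 3.29 and 41.9 ± 2.1) were higher with siRNA 1, and MYL9 was lower (adjusted p = 0.0380, 0.0397 and 0.0369). Of 9 tested AP-1 factors 0 passed with siRNA 1, and FOSL1 and JUNB fell with siRNA 2. FOSL1, which encodes FRA1, went from 26.5 ± 0.266 to 4.24 ± 0.677 (log2 difference −2.40, SE 0.184, adjusted p = 0.0226), and with siRNA 1 it stood at 17.9 ± 1.65, higher than with siRNA 2 by 1.85 (adjusted p = 0.0322). The AP-1 median was −0.78 with siRNA 2 and 0.09 with siRNA 1, and that of the SRF list −0.36 and −0.04. Over all tested genes the median was 0.14 with siRNA 2 and 0.05 with siRNA 1. With upper quartiles or column totals made equal the SRF median with siRNA 2 was −0.59 or −0.61. Without either control or either siRNA 1 library limma called no gene of any kind, so those runs do not bear on these calls. EGR2 without a control library and MYL9 without a siRNA 2 library fell below the filter and were not tested. With column totals made equal, EGR2 with siRNA 2 and ACTA2 between the siRNAs held. The call of ACTA2 was lost with no filter. With a pseudocount of 0.1 the calls of JUNB, MYL9, ACTA2 and of EGR2 with siRNA 1 were lost.

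As a description over 6 libraries, the genes most like CCN2 among 7293 others with a mean of at least 5 were HNRNPA1L3 (r = 0.998), C19orf12 (0.998) and KRCC1 (0.997). Those most like YAP1 were HSPA1A (0.997), C4orf3 (0.986) and CANT1 (0.986). Control replicate 2 was the lowest library in each of these, as in YAP1. There they stood at 1.09, 5.77 and 2.57, beside 26.3, 15.9 and 24.6 in control replicate 1. How far that library sets the correlations was not tested. HNRNPA1L3 and HSPA1A have near-identical copies in the genome, so their values are uncertain. These are the highest of 7293 values over 6 libraries in 3 groups, and how many other genes come close was not counted.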

How the data were processed

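The deposited table holds, for 19990 gene symbols and 6 libraries, a signal per gene that the authors scaled to depth. The unit is not named, the column totals differ between libraries, and counts were not recovered. Trim Galore, STAR, featureCounts and hg38 are listed in the submitters' processing notes, without versions, roles or order. Groups come from the sample titles and the siRNA labels; the control columns are headed NC.

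The 11486 genes that reached 1 in 2 or more libraries were analysed as log2(value + 1). A model with a mean for each group (6 libraries, 3 residual degrees of freedom) was fitted in limma 3.58.1 under R 4.3.3, with moderated variances from a robust eBayes trend and Benjamini-Hochberg adjustment over all genes at 0.05. The planned count test was not used, since the table holds no counts. Simulated data with known changes tested the script.

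The 10 genes and the gene lists were chosen with earlier results of these data known. Named list genes are up to 4 called genes per list with the smallest p; list members had no separate test. Promoters come from RefSeq on GRCh38.p14; positions and transcripts from GENCODE release 29 on GRCh38, the assembly of hg38, where CCN1 and CCN2 are named CYR61 and CTGF.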

Additional observations from a re-analysis of the deposited data

Results flagged for a closer look

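In 10 named genes the libraries of the 2 siRNAs lay on opposite sides of both controls. Among the 10 members this held for ANKRD1 alone, where siRNA 1 exceeded siRNA 2 by 0.51 on the log2(value + 1) scale and the difference did not pass (limma adjusted p = 0.135). The other 9 were named because limma called them, so that their difference passes is no separate result. Of 105 tested list genes other than the members, 18 had the siRNAs on opposite sides and 9 of the 18 passed. The share of all tested genes with the siRNAs on opposite sides was not counted, so 18 of 105 cannot be set against it. The difference was 1.79 for VGLL3, 1.29 for CSNK1E, 2.44 for NT5E, 1.81 for THBS1, 0.89 for CCN3, 1.45 for BIRC5 and 1.22 for CNN3, all higher with siRNA 1. It was −1.32 for STK3 and −1.14 for STRN3, both lower with siRNA 1. With column totals made equal, siRNA 2 no longer lay on the other side of control for STK3 (−0.01 against control) or STRN3 (−0.07).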

How the results depend on the processing

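The median of all genes for siRNA 2 against control moved from 0.14 to −0.05 with equal upper quartiles and −0.06 with equal column totals, and that of the 10 members from −0.48 to −0.70 and −0.72. Of the members' fold changes under all alternatives, 347 kept direction and side of the threshold, 37 passed where they had not and 6 changed sign: LATS2 with siRNA 2 (−0.16 with equal upper quartiles, −0.18 with equal totals, −0.28 to 0.36 on leaving out 1 siRNA 2 library), and, between the siRNAs, WWTR1 (0.06 without siRNA 2 replicate 1, −0.54 without replicate 2), AXL (−0.63 and 2.65) and AJUBA (0.04 and −0.48). The cause was not tested. Members called with siRNA 1 numbered 5 when those groups alone were fitted and 5 with library weights, and 0 to 5 on leaving out 1 library. For siRNA 2 that range was 0 to 5 and between the siRNAs 0 to 6.

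Of all genes, limma called 187 with siRNA 1 (81 higher, 106 lower), 345 with siRNA 2 (143, 202) and 376 between the siRNAs (219, 157). Equal upper quartiles gave 31 (18, 13), 112 (49, 63) and 76 (43, 33), equal totals 26 (14, 12), 19 (9, 10) and 38 (20, 18), library weights 3001 (1585, 1416), 11 (7, 4) and 5 (2, 3), and only the groups compared 2438, 0 and 0 (4378, 2101 and 1977 at an unadjusted p under 0.05). Without the filter there were 110 with siRNA 2 and 239 between the siRNAs. Leaving out 1 library gave 0 to 2390, 0 to 4588 and 0 to 4512, the 0 without either control or either siRNA 1 library (1237 to 2091 at an unadjusted p under 0.05). Of 23 calls of other named genes, 17 were kept with a pseudocount of 0.1, 14 without the filter, 4 with equal upper quartiles and 3 with equal totals. With the replicate block limma called 0, 0 and 0 genes (2008, 2556 and 2436 at an unadjusted p under 0.05) and 0 members in each comparison; the labels do not say that numbers pair libraries, and same-numbered libraries' deviations correlated at −0.00332 to 0.0459.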
